A study of Mus musculus with 6 samples.

Results

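Formins, slingshot phosphatases, cofilins and the kinases that act on cofilin were followed in testis of mice that carry a transgene for a constitutively active DREAM mutant and of wild-type mice. The genes are the formins Fmn1 and Fmn2, the slingshots Ssh1, Ssh2 and Ssh3, the cofilins Cfl1 and Cfl2, and the kinases Limk1, Limk2 and Tesk1. Every probe set annotated to 1 of these 10 genes alone was taken, 24 of the 45037 probe sets tested, and none of the array's probe sets named one of them together with another gene. That makes 10 genes of the 18193 that have a probe set of their own. The set was chosen by the difference between the groups in 1 probe set of Fmn1 and 1 of Ssh1, both seen to be higher in transgenic testis, so those readings are given as a description and support nothing here. Whole testes of adult animals were measured on 3 arrays of DREAM transgenic and 3 of wild-type testis, which the series text calls independent biological replicates, and all animals shared a hybrid C57BL/6 and CBA background. The promoter that drives the transgene and the number of founder lines are not given in the sources used here.

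Actin filaments are built by nucleators such as the formins and taken apart by cofilin. Cofilin is switched off when LIM kinases or TESK kinases phosphorylate a serine near its amino end, and switched on again when slingshot phosphatases remove that phosphate. In testis this cycle works in Sertoli cells, whose ectoplasmic specializations are rich in actin bundles, and in spermatids, where actin lies beneath the growing acrosome. DREAM, encoded by Kcnip3, is a calcium sensor that represses transcription when free of calcium and binds a DNA element with the core letters GTCA.

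The start regions of Fmn1 and Ssh1, the members with the readings that differed, are shown because DREAM is known for that element. They are RefSeq windows of assembly GRCm38.p6, 250 bases before and 50 after an annotated start, read on the gene's own strand, with GTCA and its reverse TGAC in capitals:
Fmn1, first start, chr2:113327486-113327785, + strand: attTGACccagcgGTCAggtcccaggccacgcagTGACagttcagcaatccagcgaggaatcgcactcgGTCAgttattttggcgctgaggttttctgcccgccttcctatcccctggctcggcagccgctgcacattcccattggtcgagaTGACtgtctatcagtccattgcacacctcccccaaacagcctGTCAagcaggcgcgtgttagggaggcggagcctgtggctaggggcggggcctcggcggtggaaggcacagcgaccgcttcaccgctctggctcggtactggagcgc
Fmn1, second start, chr2:113684840-113685139, + strand: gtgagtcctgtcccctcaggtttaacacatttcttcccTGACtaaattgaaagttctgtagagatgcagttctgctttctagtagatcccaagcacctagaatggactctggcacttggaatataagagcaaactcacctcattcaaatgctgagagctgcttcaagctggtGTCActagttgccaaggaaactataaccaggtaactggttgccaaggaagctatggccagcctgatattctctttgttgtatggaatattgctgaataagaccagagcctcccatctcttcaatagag
Ssh1, chr5:113993741-113994040, - strand: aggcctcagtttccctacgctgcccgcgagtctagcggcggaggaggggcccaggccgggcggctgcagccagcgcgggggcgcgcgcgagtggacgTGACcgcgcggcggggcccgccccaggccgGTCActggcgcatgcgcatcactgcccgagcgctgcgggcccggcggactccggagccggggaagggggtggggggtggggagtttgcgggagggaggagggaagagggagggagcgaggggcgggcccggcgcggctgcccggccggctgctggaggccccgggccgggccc

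The upstream Fmn1 window held 6 such matches and the downstream one 2, and the Ssh1 window held 2. The letters are common: 85.2% of the 32851 windows of this length in the table held at least 1 match, with a mean of 2.09 per window. Among the 16 windows of the 10 genes, 15 held the letters. The longer form GTCAAGG or its reverse, which contains GTCA, occurred in 3.18% of all windows and in neither gene's windows. Among the members it was found in both windows of Ssh3, which overlap. The cyclic AMP response element TGACGTCA, which also contains GTCA, occurred in 1.79% of all windows, and none of the 3 printed windows held it. Among the members it was found in the window of Tesk1. The base composition of the 3 windows differed, with G and C making up 62.0% and 44.0% of the Fmn1 windows and 80.0% of the Ssh1 window. These are matches of letters, and the arrays do not measure binding.

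The values are log2 intensities after RMA, a procedure that corrects background, gives all arrays nearly the same distribution and summarises the probes of each set. No detection call comes with them, so a low value does not say that a transcript is absent, and levels are not set against each other between probe sets. Array medians ran from 6.05 to 6.08 in transgenic and from 5.99 to 6.08 in wild-type testis. Wild type replicate 2 stood apart on the first principal component of all probe sets (38.9% of the variance), at 42.2, with the other 5 arrays between -23.3 and 5.27. Germ-cell transcripts were read strongly in both groups, Prm1, a protamine of spermatid chromatin, at 14.10 ± 0.03 in transgenic and 14.10 ± 0.02 in wild-type testis with 1 probe set (SD, n = 3). Kcnip3 itself read 7.27 ± 0.11 in transgenic and 7.21 ± 0.11 in wild-type testis with 1 probe set and 6.18 ± 0.14 against 6.04 ± 0.07 with the other, and neither passed the test. Whether those probe sets read the transgene is not known. Precision is limited throughout by the 3 arrays per group.

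Of the 24 probe sets, 2 passed an adjusted p under 0.05 (limma, transgenic minus wild type, Benjamini-Hochberg over all 45037), both higher, beside 0.444% of all probe sets in either direction. They are the readings for which Fmn1 and Ssh1 were chosen. Groups did not overlap in 6 of the 24, beside 11.3% of all probe sets, and the 6 include these 2 chosen readings. The other 22 probe sets, all of them short of the threshold, differed by -0.20 to 0.35 on the log2 scale, 21 of them by less than 0.25 in size. The half-widths of their 95% intervals had a median of 0.235. The median difference over the 24 was 0.01, against 0.02 over all probe sets. Within groups, the SD of the 24 probe sets had a median of 0.12 in transgenic testis (range 0.03 to 0.24) and of 0.115 in wild type (range 0.02 to 0.39).

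**Figure D1:**
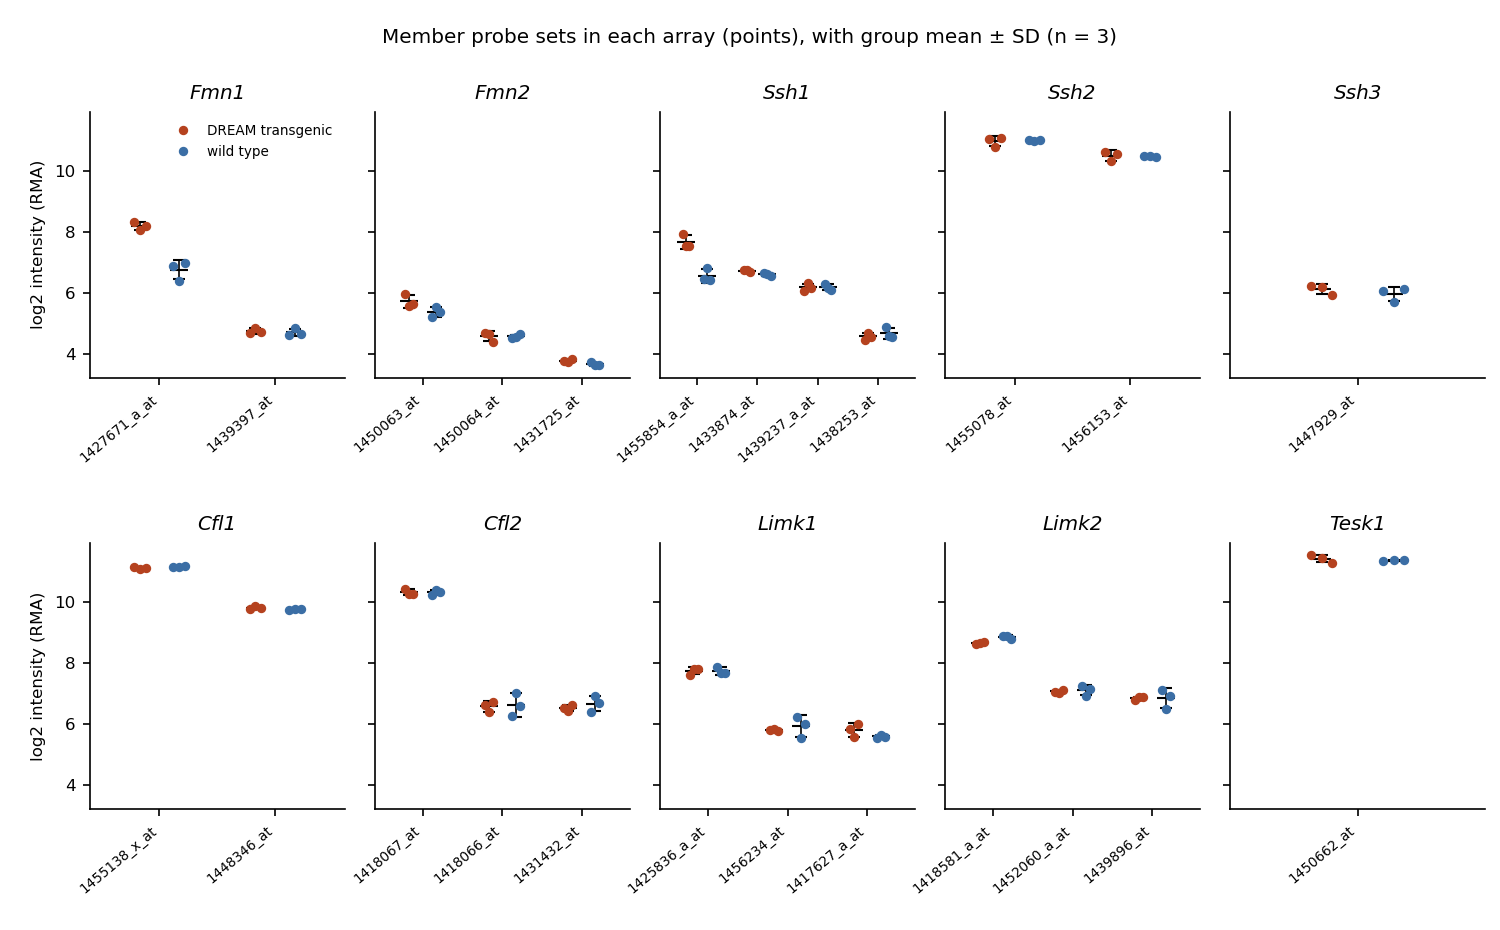
Log2 intensity (vertical axis) of each of the 24 member probe sets in every array, 1 panel per gene, with DREAM transgenic arrays left of wild-type arrays; bars are group mean ± SD (n = 3). Fmn1 1427671_a_at and Ssh1 1455854_a_at show the transgenic arrays well above the wild-type ones (8.05 to 8.33 against 6.39 to 6.98, and 7.52 to 7.94 against 6.40 to 6.82), while the other probe sets of both genes lie at nearly the same height in both groups.

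Among the formins, Fmn1 stood highest above wild type with 1 of its probe sets. Fmn1 encodes formin 1, the product of the mouse limb deformity gene, and in rat testis it is known at the ectoplasmic specialization of Sertoli cells. Probe set 1427671_a_at read 8.33, 8.05 and 8.19 in transgenic replicates 1 to 3, against 6.87, 6.39 and 6.98 in wild-type replicates 1 to 3. All transgenic arrays lay above all wild-type arrays, by more than the spread within either group. The group means were 8.19 ± 0.14 and 6.75 ± 0.31 (SD, n = 3), a difference of 1.44 on the log2 scale (SE 0.15, 95% interval 1.10 to 1.79) or a 2.72-fold ratio of intensities. The other probe set of Fmn1, 1439397_at, read 4.67, 4.84 and 4.71 in transgenic and 4.61, 4.84 and 4.63 in wild-type testis, with overlapping groups. Its difference was 0.05 (95% interval -0.18 to 0.27, limma adjusted p = 0.98), and its values fall within the lowest 40% of all probe sets. The 2 probe sets of Fmn1 therefore do not give 1 answer for the gene. The _a_at ending marks a set designed against several transcripts of 1 gene, and the files do not say which Fmn1 transcripts each set reads.

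Fmn2 encodes formin 2, known in mouse oocytes for placing the meiotic spindle. It has 3 probe sets, all within the lowest 40% of the table. Probe set 1450063_at read 5.97, 5.55 and 5.62 in transgenic and 5.21, 5.52 and 5.35 in wild-type testis. The groups did not overlap, by a margin of hundredths between the lowest transgenic and the highest wild-type array, and the difference of 0.35 (SE 0.13, 95% interval 0.06 to 0.65) did not pass (adjusted p = 0.616, limma). Probe set 1431725_at read between 3.73 and 3.83 in transgenic and between 3.61 and 3.71 in wild-type testis (difference 0.12, adjusted p = 0.912), and 1450064_at differed by 0.01 (adjusted p = 0.995).

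Among the slingshots, Ssh1 was read by 4 probe sets, and 1 of them differed. Ssh1 encodes a phosphatase that reactivates cofilin and itself binds actin filaments. Probe set 1455854_a_at read 7.94, 7.52 and 7.54 in transgenic replicates 1 to 3, against 6.45, 6.82 and 6.40 in wild-type replicates 1 to 3. The groups did not overlap, and replicate 1 was the highest of the transgenic arrays. The means were 7.67 ± 0.24 and 6.56 ± 0.23 (SD, n = 3), a difference of 1.11 (SE 0.15, 95% interval 0.77 to 1.45), a 2.16-fold ratio of intensities.

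The other 3 probe sets of Ssh1 moved little. Probe set 1433874_at read 6.73, 6.75 and 6.69 in transgenic testis, against 6.65, 6.61 and 6.54 in wild type. Its groups were close and did not overlap, with a difference of 0.12 (95% interval -0.07 to 0.31, adjusted p = 0.904). Probe set 1439237_a_at, of the same _a_at class as the one that differed, read 6.06, 6.31 and 6.15 in transgenic and 6.29, 6.15 and 6.10 in wild-type testis. Its difference of -0.01 (95% interval -0.24 to 0.22, adjusted p = 0.995) has an interval that lies below that of 1455854_a_at. Probe set 1438253_at, within the lowest 40% of the table, differed by -0.11 (95% interval -0.37 to 0.15, adjusted p = 0.957).

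Ssh2, whose loss in mice is known to disturb acrosome formation, was level between the groups with both of its probe sets. Probe set 1455078_at read 11.05, 10.78 and 11.09 in transgenic testis, against 11.00, 10.97 and 11.00 in wild type (difference -0.02, 95% interval -0.25 to 0.22, adjusted p = 0.993). Probe set 1456153_at read 10.63, 10.31 and 10.56 in transgenic testis, against 10.50, 10.50 and 10.45 in wild type (difference 0.02, 95% interval -0.22 to 0.25, adjusted p = 0.993). With both, transgenic replicate 2 was the lowest of the 6 arrays and the wild-type SD was 0.02 to 0.03. Ssh3, the third slingshot, read 6.23, 6.18 and 5.93 in transgenic and 6.04, 5.70 and 6.13 in wild-type testis with its single probe set, 1447929_at (difference 0.16, 95% interval -0.15 to 0.46, adjusted p = 0.935).

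**Figure D2:**
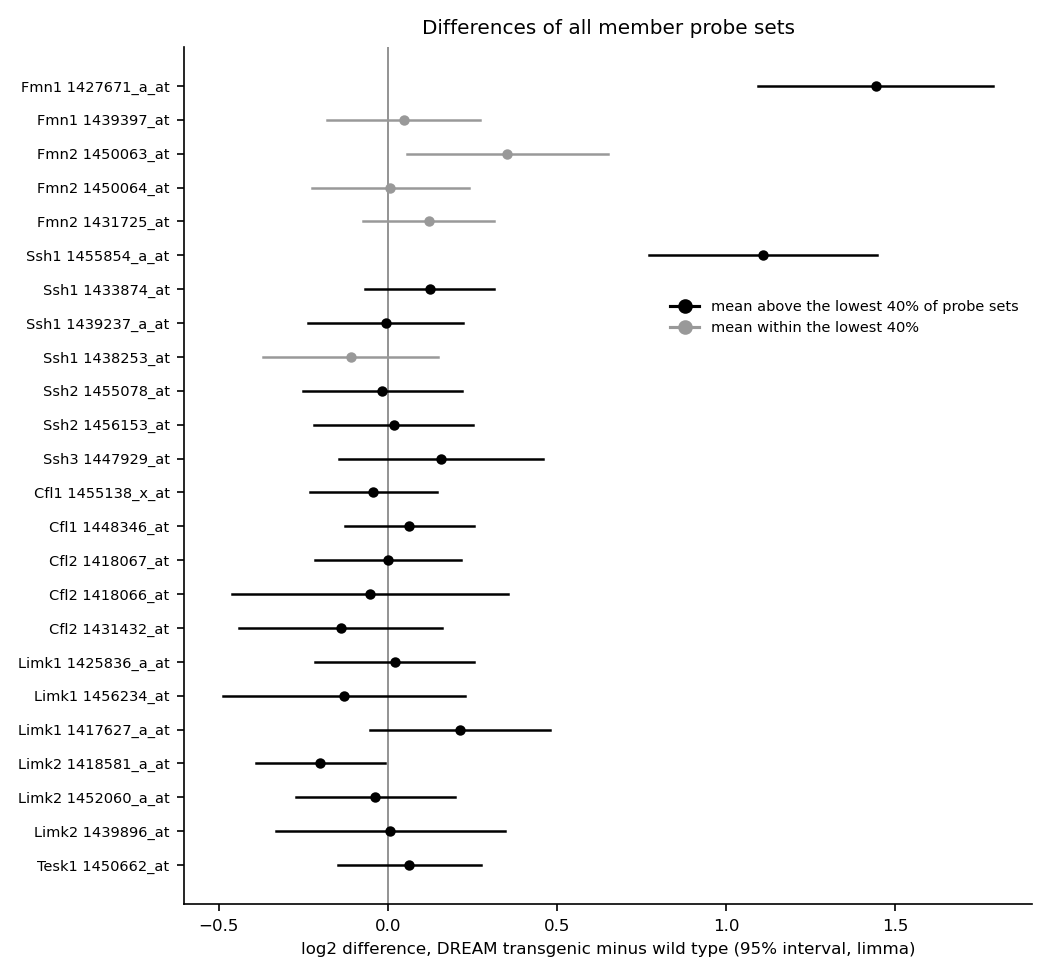
Log2 difference, DREAM transgenic minus wild type, with its 95% interval from limma (horizontal axis) for all 24 member probe sets (vertical axis); grey marks the 5 probe sets whose mean lies within the lowest 40% of the table. The intervals of Fmn1 1427671_a_at (1.10 to 1.79) and Ssh1 1455854_a_at (0.77 to 1.45) lie clear of the other 22, the highest of which ends at 0.65.

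The groups overlapped with all 5 probe sets of the cofilins, and none passed. Cfl1 encodes the cofilin of non-muscle cells. Probe set 1455138_x_at read 11.16, 11.08 and 11.11 in transgenic and 11.15, 11.14 and 11.19 in wild-type testis (difference -0.04, 95% interval -0.23 to 0.15, adjusted p = 0.978). Its ending marks a set whose probes can also match other transcripts. Probe set 1448346_at of Cfl1 read 9.76, 9.88 and 9.82 in transgenic and 9.74, 9.77 and 9.76 in wild-type testis (difference 0.06, 95% interval -0.13 to 0.25, adjusted p = 0.968). Together the intervals of Cfl1 ran from -0.23 to 0.25 on the log2 scale.

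Cfl2 encodes the cofilin first known from muscle. Probe set 1418067_at averaged 10.32 ± 0.10 in transgenic and 10.32 ± 0.09 in wild-type testis (SD, n = 3), with a 95% interval of -0.22 to 0.22 around equal means. Probe sets 1418066_at and 1431432_at differed by -0.05 and -0.14 (adjusted p = 0.987 and 0.946). With both of these, wild type replicate 2 was the highest of the 6 arrays, at 7.03 and 6.91. Without that array 1418066_at read 0.15 and changed sign, and it did not pass either way.

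Of the 7 probe sets of the kinases, 1 of Limk2 was lower in all transgenic arrays than in all wild-type arrays. Limk2 encodes LIM kinase 2, of which mouse testis makes an isoform of its own. Probe set 1418581_a_at read 8.63, 8.67 and 8.68 in transgenic testis, against 8.89, 8.89 and 8.80 in wild type. The groups did not overlap, and the difference of -0.20 (SE 0.08, 95% interval -0.39 to -0.01) had an unadjusted p of 0.0411 and did not pass over all probe sets (limma adjusted p = 0.72). Probe sets 1452060_a_at and 1439896_at differed by -0.04 and 0.01 (adjusted p = 0.986 and 0.995). With both, wild type replicate 2 was the lowest of all arrays, and without it 1439896_at read -0.17 (adjusted p = 0.551).

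Limk1 encodes LIM kinase 1, and its 3 probe sets had no common direction. Probe set 1425836_a_at averaged 7.75 ± 0.12 in transgenic and 7.73 ± 0.13 in wild-type testis (SD, n = 3; difference 0.02, adjusted p = 0.993). Probe set 1417627_a_at read 5.84, 5.57 and 6.00 in transgenic and 5.55, 5.65 and 5.57 in wild-type testis (difference 0.21, 95% interval -0.05 to 0.48, adjusted p = 0.837). Probe set 1456234_at read 5.79, 5.84 and 5.77 in transgenic and 6.24, 5.54 and 6.01 in wild-type testis (difference -0.13, adjusted p = 0.965), and its wild-type arrays spread over more than the transgenic ones. Without wild type replicate 2 that difference was -0.325 (95% interval -0.55 to -0.10, adjusted p = 0.236), and without wild type replicate 1 it was 0.025. Without transgenic replicate 2, 1417627_a_at differed by 0.33 (adjusted p = 0.669).

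Tesk1 encodes a cofilin kinase named for its expression in testis, where germ cells are known to make it. Its single probe set, 1450662_at, read 11.54, 11.44 and 11.30 in transgenic testis, against 11.34, 11.38 and 11.37 in wild type. The wild-type values lie inside the range of the transgenic ones, and the difference was 0.06 (95% interval -0.15 to 0.27, adjusted p = 0.972).

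Across the 6 arrays the readings of Fmn1 1427671_a_at and Ssh1 1455854_a_at had a Pearson correlation of 0.88, which follows in part from both having been picked for a difference between the same groups. Limk2 1418581_a_at ran the other way, at -0.97 with Fmn1 and -0.89 with Ssh1. Limk2 1452060_a_at and 1439896_at stood at 0.045 and 0.214 with Fmn1 and at -0.38 and -0.22 with Ssh1. Other members that did not pass correlated about as closely. Fmn2 1450063_at stood at 0.904 with Ssh1, Fmn2 1431725_at at 0.862 with Fmn1, and Ssh1 1433874_at at 0.848 with the Ssh1 reading. Among the transgenic arrays replicate 1 was the highest and replicate 2 the lowest for both the Fmn1 and the Ssh1 reading. Among the wild-type arrays the order was opposite, with replicate 2 lowest for Fmn1 and highest for Ssh1. Among named single-gene probe sets with an SD of at least 0.3 over the arrays, the genes with the pattern most like that of the Fmn1 probe set were Crmp1 (r = 0.996), Nat8f5 (0.98), C1s1 (0.978), Map3k7cl (0.977) and Lrg1 (0.975), with differences of 0.73, 0.92, 0.61, 0.51 and 0.70. Most like the Ssh1 probe set were Irx5 (r = 0.993), Mybl1 (0.991), Cmya5 (0.99), Gpt2 (0.99) and Cep192 (0.984), with differences of 1.04, 0.71, 0.79, 0.94 and 0.71. All these correlations run over 6 arrays of 2 groups, where any reading that separates the groups scores high, and they are given as a description. Without that limit other probe sets ranked between them, 27 having at least the correlation of Lrg1 with Fmn1 and 18 that of Cep192 with Ssh1.

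Several measures of the arrays moved with the groups as the Fmn1 and Ssh1 readings did. The Gapdh control probe sets at the 3' end read above those at the 5' end, a gap that reflects RNA integrity, by 0.21, 0.26 and 0.33 on the log2 scale in transgenic and by 0.16, 0.06 and 0.11 in wild-type testis, without overlap (two-sided exact permutation p = 0.1, the smallest that 3 against 3 can give). With it as a covariate Fmn1 read 1.23 (SE 0.30) and Ssh1 1.63 (SE 0.22), and neither passed. Without it both SEs were 0.15. Since the gap separates the groups, this fit on 6 arrays cannot tell it apart from genotype. The same gap of the beta-actin control was 0.497 ± 0.031 in transgenic and 0.470 ± 0.052 in wild-type testis (SD, n = 3; exact permutation p = 0.7). The mean level of the 5 of 7 Leydig cell markers that could be read was 9.01 to 9.18 in transgenic and 8.49 to 8.75 in wild-type testis. Of the Leydig probe sets, 1 of 9 passed, that of Hsd3b1, a steroid dehydrogenase, at 9.86 ± 0.11 against 8.38 ± 0.23 (difference 1.48, limma adjusted p = 0.00109). Hsd17b3, which makes testosterone, differed by 0.91 without overlap (adjusted p = 0.146). The other 7 Leydig probe sets overlapped, with differences of -0.08 to 0.28, that of Cyp17a1, another steroid enzyme, being 0.03, so the higher list mean rests mainly on Hsd3b1 and Hsd17b3. The means of 4 endothelial markers (5.12 to 5.17 against 4.79 to 4.99), 4 macrophage markers (6.23 to 6.29 against 5.98 to 6.19) and 3 of 4 adipose markers (6.38 to 6.54 against 6.25 to 6.33) also lay higher in all transgenic arrays than in all wild-type arrays. That of 6 spermatocyte markers lay lower in all (9.38 to 9.44 against 9.57 to 9.64). All 6 differences were below 0 but uneven, with -0.41 for Sycp1, -0.38 for Spo11, -0.21 for Hormad1 and -0.12 to -0.02 for the others. No probe set of these 4 lists passed. The endothelial difference was largest for Tek (0.47), while 1 Cdh5 probe set ran the other way (-0.14). The Tek, Emcn, Cdh5, Cd163 and Lep probe sets lie within the lowest 40% of the table, and Adipoq differed by 0.03. The 10 Sertoli markers overlapped (8.59 to 8.73 against 8.58 to 8.76). So did the spermatogonial, round and elongating spermatid, peritubular myoid, epididymal and erythroid lists. Within the epididymal list Rnase10 differed by -0.60 without overlap (limma adjusted p = 0.0647), while Lcn5 and Lcn8 differed by 0.04 and 0.07. All 3 lie within the lowest 40% of the table. The part of these cell types in the Fmn1 and Ssh1 readings was not tested, and in whole testis fewer cells of a type and less RNA per cell cannot be told apart.

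**Figure D3:**
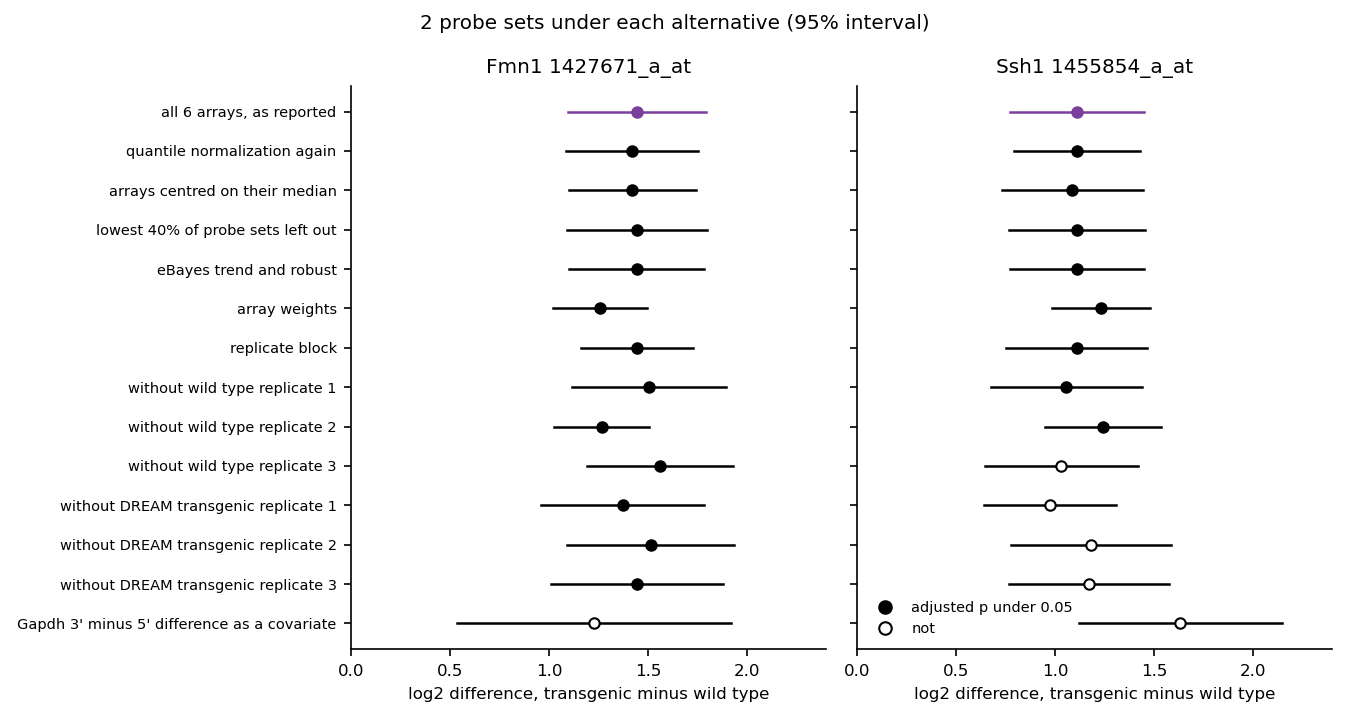
Log2 difference, DREAM transgenic minus wild type, with its 95% interval (horizontal axis) for Fmn1 1427671_a_at and Ssh1 1455854_a_at. The vertical axis lists the main fit and the alternatives that fit each of these probe sets singly. Averaging a gene's probe sets and removing the _a_at sets are not shown. Filled points have a limma adjusted p under 0.05. The differences stay between 1.23 and 1.56 for Fmn1 and between 0.97 and 1.63 for Ssh1, and the open points show where each falls short of the threshold.

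Both readings stayed above 0 in all alternatives shown. Their groups do not overlap, so leaving out 1 array could not change their sign. For Fmn1 the difference ran from 1.23 to 1.56, and it fell short of the threshold with the Gapdh covariate alone. For Ssh1 it ran from 0.97 to 1.63, and it also fell short without wild type replicate 3 (1.03) and without transgenic replicate 1 (0.97), 2 (1.18) or 3 (1.17). Without wild type replicate 2, the array that stood apart, Fmn1 read 1.265 and Ssh1 1.24. With the probe sets of each gene averaged before the fit, Fmn1 read 0.745 (95% interval 0.57 to 0.92) and Ssh1 0.28 (95% interval 0.11 to 0.45). Fmn1 passed there (limma adjusted p = 0.00314) and Ssh1 did not (adjusted p = 0.228). Each of these means includes the reading for which its gene was chosen. They and the calls under the alternatives are therefore a description too, and support nothing for the gene.

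Beside the members, 6 lists of other actin genes were read, chosen with earlier results of these data known. Of their 169 probe sets 2 passed, beside 0.444% of all probe sets. Both are in the list of other genes that take actin filaments apart, and they are given as a description. Cap1 and Cap2 encode the cyclase-associated proteins, which bind actin and work with cofilin in filament disassembly. Cap1 rose in transgenic testis with 1417461_at, which read 10.54, 10.35 and 10.44 in transgenic replicates 1 to 3, against 9.47, 9.69 and 9.57 in wild-type replicates 1 to 3. The difference was 0.87 (SE 0.10, 95% interval 0.65 to 1.09, limma adjusted p = 0.00627), a 1.82-fold ratio of intensities. Its other probe set, 1417462_at, read 9.87, 9.84 and 9.58 in transgenic and 8.37, 9.17 and 8.85 in wild-type testis, also without overlap. Its difference of 0.97 (SE 0.18) was of like size and did not pass (adjusted p = 0.0779). Of the 6 fits leaving out 1 array, it passed only without wild type replicate 2 (1.15, adjusted p = 0.00588). Over these fits it ran from 0.75 to 1.15, with limma adjusted p up to 0.39. Leaving out wild type replicate 2 also raised the calls over the whole table from 200 to 429. The mean of the Cap1 probe sets differed by 0.92 (SE 0.125, adjusted p = 0.0131).

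Cap2 fell with 1450910_at, which read 5.34, 5.28 and 5.27 in transgenic testis, against 5.85, 5.87 and 5.83 in wild type (difference -0.55, SE 0.08, 95% interval -0.74 to -0.37, limma adjusted p = 0.0255). The other probe set of Cap2, 1423222_at, read 9.67, 9.73 and 9.59 in transgenic and 9.65, 9.88 and 9.72 in wild-type testis (difference -0.09, adjusted p = 0.962). The Cap1 call was lost without wild type replicate 3 (adjusted p = 0.0522), transgenic replicate 1 (0.0582) or transgenic replicate 3 (0.057). The Cap2 call was lost without wild type replicate 1 (0.0737) or 3 (0.154) and without transgenic replicate 1 (0.127), 2 (0.158) or 3 (0.148). The mean of the Cap2 probe sets differed by -0.32 and did not pass either (adjusted p = 0.119). The Gapdh and cell type measures above moved with these readings too. With the Gapdh covariate Cap1 1417461_at read 1.07 (adjusted p = 0.139) and Cap2 1450910_at -0.49 (adjusted p = 0.381).

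**Figure D4:**
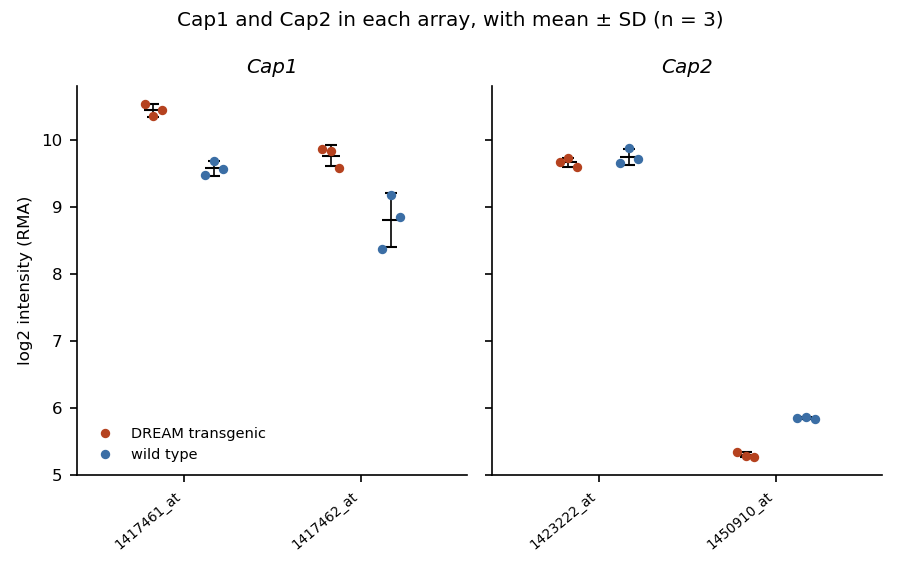
Log2 intensity (vertical axis) of each probe set of Cap1 and Cap2 in every array, DREAM transgenic left of wild type; bars are group mean ± SD (n = 3). Both Cap1 probe sets lie higher in all transgenic arrays (10.44 ± 0.10 against 9.58 ± 0.11, and 9.76 ± 0.16 against 8.80 ± 0.40), while of the Cap2 probe sets 1450910_at lies lower (5.30 ± 0.04 against 5.85 ± 0.02) and 1423222_at overlaps.

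In all, 6 lists of other actin genes, 79 in number, were read through 169 probe sets of 71 genes. The lists were chosen with earlier results of these data known. Of these probe sets 1 passed as higher and 1 as lower, both named above, beside 0.171% and 0.273% of all probe sets. An unadjusted limma p under 0.05 was found in 12 (7.1%, beside 6.69% of all probe sets). Their median difference was 0.03, against 0.02 over all probe sets. None of the 30 probe sets of other formins, spires and profilins passed (2 at an unadjusted limma p under 0.05, median -0.055 with 14 above 0). Daam1, a formin of planar polarity signalling, had the smallest p with 5.77, 5.73 and 5.65 in transgenic and 5.97, 6.39 and 6.12 in wild-type testis (difference -0.44, adjusted p = 0.278). Its other probe sets differed by -0.08 and -0.14. Pfn1, which encodes the actin monomer carrier profilin, differed by 0.37 (adjusted p = 0.719).

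None of the 33 probe sets of the GTPases and kinases upstream of LIM kinases and of other kinases, phosphatases and binders of the cofilin phosphorylation site passed (3 at an unadjusted limma p under 0.05, median 0.03). Rhoa, a GTPase that activates ROCK kinases, read 9.47 in all 3 transgenic arrays against 8.84, 9.25 and 8.89 in wild type with 1437628_s_at (difference 0.48, SE 0.12, adjusted p = 0.219). Without wild type replicate 2 that difference was 0.605 and passed (adjusted p = 0.0127). That was the only 1 of the 6 fits leaving out an array in which it passed, with limma adjusted p up to 0.75 in the others. Its other probe sets differed by 0.35 and 0.04 and did not pass. Rock1, a kinase that phosphorylates LIM kinases, read 7.44, 7.62 and 7.29 in transgenic testis against 7.85, 7.71 and 7.86 in wild type with 1423444_at (difference -0.36, adjusted p = 0.401). Its other 4 probe sets differed by -0.21 to -0.09 and did not pass.

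The disassembly list, with Cap1 and Cap2, had 21 of 29 probe sets above 0, beside 25430 of all 45037, and a median of 0.06. None of the 28 probe sets of the Arp2/3 complex and its activators passed (2 at an unadjusted limma p under 0.05, median 0.015), and Arpc1a and Arpc2, subunits of that complex, differed by 0.27 and -0.21 (adjusted p = 0.728 and 0.733). None of the 20 probe sets of actins, testis actin-like proteins and capping proteins passed (1 at an unadjusted limma p under 0.05, median 0.04). Actrt3, an actin-related gene of testis, differed by 0.23 and Capzb, a capping protein subunit, by 0.18 (adjusted p = 0.744 and 0.79). None of the 29 probe sets of ectoplasmic specialization genes passed (1 at an unadjusted limma p under 0.05), with 14 above 0 and 14 below. Eps8, an actin capping and bundling protein of that structure, differed by 0.32 and Palld, an actin cross-linker, by 0.17 (adjusted p = 0.72 and 0.836), each with its probe set of smallest p.

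**Figure D5:**
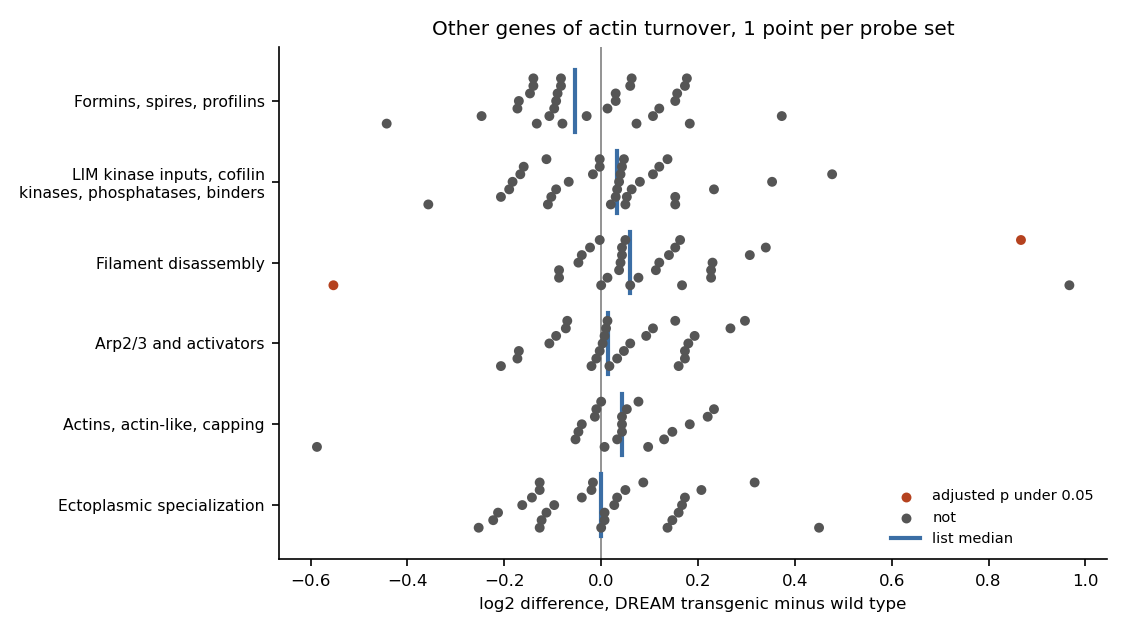
Log2 difference, DREAM transgenic minus wild type (horizontal axis), of each probe set of the 6 lists of other actin genes (vertical axis, spread within a list for legibility); red points have a limma adjusted p under 0.05 and blue bars are list medians. The red points are 1 probe set of Cap1 at 0.87 and 1 of Cap2 at -0.55, and the list medians lie between -0.06 and 0.06.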

How the data were processed

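Total RNA of freshly dissected testes was labelled and hybridised to Affymetrix whole-genome mouse arrays, 1 per sample, per the labels. The submitters' processing notes name RMA and the affy package, with no version, and the deposited values are log2 intensities to 2 decimals. RMA's quantile step hides any shift of all transcripts at once. Probe sets were named from the platform annotation, with symbols updated through a RefSeq gene table of GRCm38.p6 (34741 of 34945 single-gene probe sets matched). The 64 control probe sets were left out and the remaining 45037 compared by limma 3.58.1 under R 4.3.3 (lmFit with eBayes, a two-sided test, Benjamini-Hochberg, threshold adjusted p under 0.05), with no filter on dim probe sets. The fit was tested on simulated data. Members and gene lists were chosen with earlier results of these data known. Named are all member probe sets, Kcnip3, in each list the genes past the threshold or else the 2 of smallest p, and the 5 genes most like Fmn1 and Ssh1 (Pearson r over 6 arrays, SD at least 0.3). Prm1, Hsd3b1, Hsd17b3, Cyp17a1 and the chromosomal neighbours were named after their values were seen. Alternatives were another quantile normalization, median centring, a filter dropping the lowest 40%, trended and robust eBayes, array weights, a replicate block, each array left out in turn, removal of the _x_at, _s_at and _a_at sets, averaging a gene's probe sets, and the Gapdh difference as a covariate.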

Additional observations from a re-analysis of the deposited data

How the results depend on the processing

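Of 323 values of the member probe sets under the alternatives, 269 kept their direction and their side of the threshold, 6 lost their call, and 48 changed sign with neither value past the threshold. None of the called values changed sign, which their groups without overlap fixed in advance wherever 1 array was left out. Ssh1 lost its call without wild type replicate 3 (adjusted p = 0.0911), without transgenic replicate 1 (0.0776), 2 (0.0913) or 3 (0.0783) and with the Gapdh covariate (0.0735), and Fmn1 with that covariate (0.316). Of the member probe sets, 0 passed with the covariate and 0 with the _x_at, _s_at and _a_at sets removed, which takes out both called sets. With averaged probe sets 1 of 10 genes passed, Fmn1, whose mean includes its chosen reading, and leaving out 1 array gave 1 to 2. Of the other actin probe sets, 6 passed with array weights, 1 with averaging and 0 with the covariate, and leaving out 1 array gave 0 to 5. Over the whole table, 306 passed with trended and robust eBayes, 1058 with array weights, 18 with the covariate and 70 to 429 with 1 array left out, 429 being without wild type replicate 2. The array weights were 4.70 for wild type replicate 3 and 0.327 to 1.11 for the others, by the gene-by-gene method, since the default method did not converge. With the replicate number as a block, 117 probe sets passed in all, 2 of the members and 1 of the other actin probe sets, where Cap2 was lost (adjusted p = 0.135). The numbers are not stated to pair the arrays. Same-numbered arrays correlated at -0.319, -0.0651 and -0.0124 in their deviations, and 0 of 6 arrays correlated best with its own number. With 3 arrays per group these values cannot settle whether the samples were paired.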

Other observations

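The chromosomal neighbours of the differing members were read as well, taking the 5 nearest genes with a probe set of their own on each side. Around Fmn1 on chromosome 2, 0 of 17 probe sets passed (limma, smallest adjusted p = 0.186, 2 at an unadjusted p under 0.05), with a median difference of -0.01. Grem1, a BMP antagonist whose limb enhancers lie within the Fmn1 gene, read 5.61, 5.53 and 5.61 in transgenic testis, against 5.65, 5.65 and 5.55 in wild type (difference -0.03, adjusted p = 0.985). Tmco5b read 8.01, 8.20 and 8.23 in transgenic and 8.64, 8.68 and 8.45 in wild-type testis, without overlap (difference -0.44, adjusted p = 0.186). Around Ssh1 on chromosome 5, 0 of 15 probe sets passed (limma, smallest adjusted p = 0.38, 1 at an unadjusted p under 0.05), with a median difference of 0.06. Alkbh2, a DNA repair dioxygenase gene, read 5.16, 5.04 and 5.04 in transgenic and 5.34, 5.49 and 5.34 in wild-type testis (difference -0.31, adjusted p = 0.38).

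Wild type replicate 2 was the highest or lowest of the 6 arrays in 8 of the 24 member probe sets, and in 50.1% of all probe sets. Wild type replicate 1 was so in 12 of the 24 (37.1% of all) and transgenic replicate 1 also in 12 (23.3% of all). The _a_at class held 7 of the 24 member probe sets, among them both that passed. Those 2 are the readings for which the genes were chosen, and the share of the class among all probe sets was not taken.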
